A study of Homo sapiens with 6 samples.

Results

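The genes described here are the human zinc finger genes whose symbol is ZNF followed by a number. They were chosen by symbol in the probe table of an Affymetrix array, and each gene was represented by its brightest probe set, judged by the mean of the 6 arrays. There were 235 such genes, with 304 probe sets, among 11963 genes with a probe set of 1 symbol. A further 15 probe sets list a ZNF symbol together with another gene, and these were kept apart. The arrays hold RNA of Hs578T, an established human breast cancer cell line of mesenchymal type, carrying an inducible gene for the homeobox transcription factor HOXA5. RNA was taken before induction (0 h), then at 6 h and 9 h, in 2 experiments, which gives 2 arrays per group. All groups carry the inducible gene, and the cells had been seeded on a 10 cm dish 24 h before induction. The sources used here do not give the inducing agent, no uninduced 6 h or 9 h array was analysed here, and so time in culture, the agent and HOXA5 cannot be told apart. HOXA5 levels were not analysed here.

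Most ZNF genes encode C2H2 zinc finger proteins, in which repeated fingers, each folded around a zinc ion, read DNA. The largest class carries a KRAB domain, which recruits the corepressor TRIM28 and, through it, the histone methyltransferase SETDB1 and HP1 proteins, and is best known for silencing transposable elements. These genes arose by repeated duplication and lie in clusters, above all on chromosome 19, where the annotation places 103 of the 235 genes. Of the 235, 226 are annotated as protein coding, 6 as transcribed pseudogenes and 3 as long non-coding RNAs.

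Promoter sequence is shown for 3 of the genes whose levels are given below, because the induced factor is a homeobox protein and these genes are among those with the highest change at 9 h. RefSeq promoters of build GRCh38.p14 were matched for 196 of the 235 genes, with the start listed first where a gene has several. Each line gives the 250 bases before the start, 5′ to 3′ on the strand of the gene. Capitals mark matches on either strand to TAATTA (a homeobox core), CCGGAAG (an ETS motif) and GGGCGG (the GC box), which abut at 1 place in ZNF267. ZNF267 (chr16:31873557-31873806, plus strand) and ZNF274 (chr19:58182811-58183060, plus strand) are the 2 ZNF genes with the homeobox core in this window. Both also have the ETS motif and the GC box, and ZNF557 (chr19:7069453-7069702, plus strand), with the highest mean change at 9 h, has the ETS motif without the others.
ZNF267: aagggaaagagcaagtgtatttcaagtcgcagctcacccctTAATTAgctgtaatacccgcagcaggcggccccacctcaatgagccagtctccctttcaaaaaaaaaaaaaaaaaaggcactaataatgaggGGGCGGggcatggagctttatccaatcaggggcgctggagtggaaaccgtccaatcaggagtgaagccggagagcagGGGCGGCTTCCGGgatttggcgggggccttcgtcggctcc
ZNF274: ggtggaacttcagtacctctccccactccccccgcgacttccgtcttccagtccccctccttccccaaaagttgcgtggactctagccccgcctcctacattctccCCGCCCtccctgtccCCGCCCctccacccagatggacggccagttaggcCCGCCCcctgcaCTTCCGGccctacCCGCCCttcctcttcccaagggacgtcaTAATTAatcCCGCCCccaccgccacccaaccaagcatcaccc
ZNF557: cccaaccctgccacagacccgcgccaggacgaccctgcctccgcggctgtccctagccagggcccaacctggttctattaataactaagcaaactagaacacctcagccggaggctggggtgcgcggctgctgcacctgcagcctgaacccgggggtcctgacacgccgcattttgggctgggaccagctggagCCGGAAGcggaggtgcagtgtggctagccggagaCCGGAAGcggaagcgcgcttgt

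The homeobox core was found in 1.02% of the 196 ZNF promoters, against 2.39% of the promoters of 8453 tested genes and 4.49% of all 27305 promoters of that length. The ETS motif stood in 34.2% of ZNF promoters, against 14.0% of those of tested genes and 8.82% of all. The GC box was found in 58.2% of ZNF promoters, against 62.9% and 42.3%. The TATA box (TATAAA) was found in 2.55%, against 6.99% and 11.1% of those sets. The cyclic AMP response element TGACGTCA stood in 4.08% of ZNF promoters, against 2.91% and 1.77%, and the AP-1 motif TGACTCA in 2.55%, against 2.78% and 4.16%. These matches describe the letters of the window and are not binding sites. The ZNF promoters held a median of 17 CG pairs, against 20 for tested genes and 11 for all.

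Relative to the whole array, the median level of the ZNF genes was higher after induction, with 0.43 at 9 h and 0.22 at 6 h on the log2 scale (0.46 and 0.40 with trimmed-mean scaling), while in unscaled values their median changes from 0 h were negative, as those of all genes were. In experiment 1 the median normalised intensity of the 205 tested ZNF genes was 44.8, 54.2 and 64.3 units at the 3 times, and in experiment 2 it was 44.0, 51.7 and 64.7 units. For all 10437 tested genes, the ZNF genes among them, it lay between 87.9 and 90.3 on every array. Both 9 h arrays therefore lay above both 6 h arrays, and these above both 0 h arrays, for the family median. The median of all genes is held nearly level by the normalisation, so it is no independent contrast. In bulk RNA of this kind, more RNA of a gene per cell and more cells with that RNA cannot be told apart. The median log2 change of the ZNF genes was 0.43 for 9 h against 0 h and 0.22 for 6 h against 0 h, beside -0.02 and 0.01 for all tested genes. It was 0.22 for 9 h against 6 h, beside -0.01 for all.

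**Figure D1:**
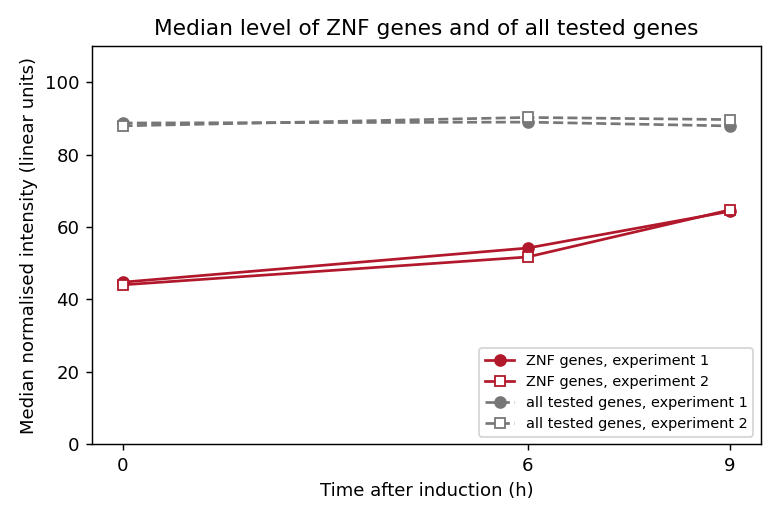
Median normalised intensity (linear units) of the 205 tested ZNF genes and of all 10437 tested genes, on each array, against time after induction in hours, with a line per experiment. In experiment 1 the ZNF median is 44.8 at 0 h and 64.3 at 9 h, and in experiment 2 it is 44.0 and 64.7. That of all genes, held nearly level by the normalisation, stays between 87.9 and 90.3. These are values relative to the whole array, and in unscaled values the ZNF median change from 0 h is negative.

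A gene was tested where at least 2 of the 6 arrays lay above a floor of 12.7 intensity units, which was used for all lower values. By that rule 205 ZNF genes were tested, of which 115 were bright (a mean at or above the median of all probe sets, 46.1 units) and 90 dim, and 30 were untested. Mean brightness over all arrays chose the probe sets and these classes, so it is given as a description only. The untested share was 12.8%, as it was for all genes, and 48.9% were bright against 57.5% of all genes. ZNF623 and ZNF222 lay just inside the bright class at 46.7 and 46.6 units, and ZNF34 and ZNF358 just outside it at 46.0 and 45.5. ZNF324 and ZNF41, the dimmest of the tested genes, had means of 13.3 units and 2 arrays above the floor, and ZNF471 and ZNF268, untested, had 1 array above it and means of 15.1 and 14.2. The untested genes included ZNF750, a differentiation factor of the epidermis, ZNF711, ZNF80 and ZNF135.

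No ZNF gene passed an adjusted p of 0.05 by limma in any comparison, nor did any gene of the array in that fit. At an unadjusted limma p under 0.05, 45 of the 205 tested ZNF genes were higher and 1 was lower at 9 h than at 0 h, where 4.7% and 3.21% of all tested genes were. At 6 h 13 were higher and 3 lower, where 2.39% and 1.84% of all tested genes were. For 9 h against 6 h 19 were higher and 3 lower, against 2.52% in each direction. With both induced times set against 0 h, 39 were higher and 1 lower, against 3.81% and 2.62%. With the experiment as a block in the fit, 0.45% of all tested genes passed at 9 h by adjusted p, and 0 of the ZNF genes. The lowest adjusted p of a ZNF gene was then 0.0537, for ZNF274. The block gave 54 ZNF genes higher and 3 lower at an unadjusted p under 0.05 for 9 h against 0 h, where 8.29% and 6.8% of all tested genes were. For 6 h against 0 h it gave 21 higher and 4 lower, where 5.21% and 4.53% were. For 9 h against 6 h it gave 25 higher and 2 lower, where 4.79% and 4.6% were, and for both induced times against 0 h, where 0.22% of all tested genes and 0 ZNF genes passed by adjusted p, 50 higher and 2 lower, where 7.18% and 6.06% were. Single arrays weighed on the counts of the fit without the block. Leaving out the 0 h array of experiment 1 gave 22 higher at 9 h in place of 45 (10.7%, against 2.05% of all tested genes), and leaving out that experiment's 9 h array gave 29 (14.2%, against 4.26%). At 6 h the share came closer to that of all genes. In place of 13 the count was 4 if the first experiment's 0 h array was dropped (1.95%, against 1.15%), 7 if the second's was (3.41%, against 1.96%), and 7 if the second's 6 h array was (3.41%, against 2.97%). For 9 h against 6 h the 19 became 10 with the 9 h array of the first experiment dropped (4.88%, against 1.99%). For both induced times the 39 became 8 and 16 with the 0 h array of the first or of the second experiment dropped (3.90% and 7.80%, against 1.21% and 2.68%). In unscaled values 0 ZNF genes were higher and 27 lower at 6 h, 4 were higher and 5 lower at 9 h, and 0 were higher and 13 lower for both induced times against 0 h, while 23 were higher and 0 lower for 9 h against 6 h. The labels describe 2 batches of RNA and no further replication, so these p-values measure the spread between 6 arrays. The family was not tested as a set.

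The median ZNF change at 9 h was 0.41 in experiment 1 and 0.44 in experiment 2, beside -0.01 and 0.00 for all tested genes. A total of 117 tested ZNF genes were higher in both experiments at 9 h, where 28% of all tested genes were, and 18 were lower in both, where 29.5% were. Over all 235 members, untested ones included, those counts are 49.8% and 7.66%, against 24.5% and 25.8% of all 11963 genes. In the bright class, which is set by the mean over all arrays, 78 of 115 were higher in both experiments and 8 lower, or 67.8% and 6.96%, against 31.7% and 32.3% of bright genes as a whole. For 100 tested ZNF genes both 9 h arrays lay above both 0 h arrays, where 19.2% of all tested genes did, and for 13 both lay below, where 19.4% did. At least 2-fold higher in both experiments were 29, where 2.37% of all tested genes were, and 0 were at least 2-fold lower, where 1.08% were. The levels stood in the order 0 h, 6 h, 9 h, lowest first, in both experiments for 45 ZNF genes, where 6.21% of all tested genes did so, and in the opposite order for 3, where 4.37% did.

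**Figure D2:**
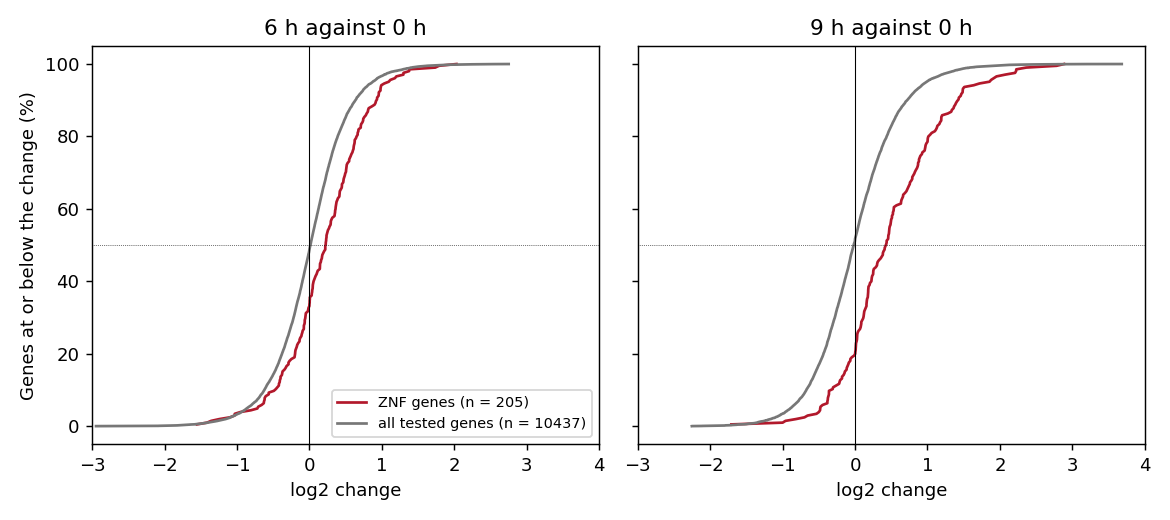
Percentage of genes at or below each log2 change, for 6 h against 0 h (left) and 9 h against 0 h (right), for the 205 tested ZNF genes and for all 10437 tested genes, in values relative to the whole array. The ZNF curve lies to the right of the other from about -1 upward, with a median of 0.22 at 6 h and 0.43 at 9 h; in unscaled values the ZNF medians are negative.

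At 6 h the ZNF median was 0.20 in experiment 1 and 0.29 in experiment 2, with 93 genes higher in both, where 26.9% of all tested genes were, and 33 lower in both, where 25% were. The lot line of the 6 h array of experiment 2 gives experiment 1. Counts by experiment that involve 6 h, the orders of the 3 times above included, thus rest on its title. At least 2-fold in both experiments were 7 on the higher side, where 1.18% of all tested genes were, and 2 on the lower side, where 1.04% were. Both 6 h arrays lay above both 0 h arrays for 66 ZNF genes, where 16.9% of all tested genes did, and below for 17, where 15.3% did. From 6 h to 9 h, 89 genes were higher in both experiments, where 27.5% of all tested genes were, and 23 lower, where 27.2% were. At least 2-fold in both experiments, 14 were higher and 2 lower, where 0.834% and 0.719% were, and the groups did not overlap for 67 that were higher and 11 that were lower, where 14.8% and 15.4% of all tested genes did not. For ACTB the 3′ over 5′ signal ratio, a sign of RNA quality, was 1.82 in the 9 h array of experiment 1 and between 0.918 and 1.09 in the others. That of GAPDH was 1.31 and 1.12 at 9 h, and between 0.863 and 1.09 in the others. With the 9 h array of experiment 1 left out, the ZNF median change at 9 h was 0.46. The part of these ratios in the ZNF result was otherwise not tested. The 8 mesenchymal markers, VIM, FN1 and CD44 the brightest of them, summed to between 15727 and 17544 units on the arrays. The 7 luminal markers summed to between 203 and 312 units, with EPCAM, KRT19 and PGR at the floor on every array, while the luminal factor GATA3 was above it on all 6, at a mean of 146 units. TWIST1, a mesenchymal factor, had a mean of 33.8 units. The 3 leukocyte markers measured summed to between 54.8 and 115 units, and the 3 endothelial ones to between 53.9 and 72.6, with CDH5 at the floor throughout. HBB and ALB, marking erythroid and hepatic cells, summed to between 61.5 and 100.3.

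**Figure D3:**
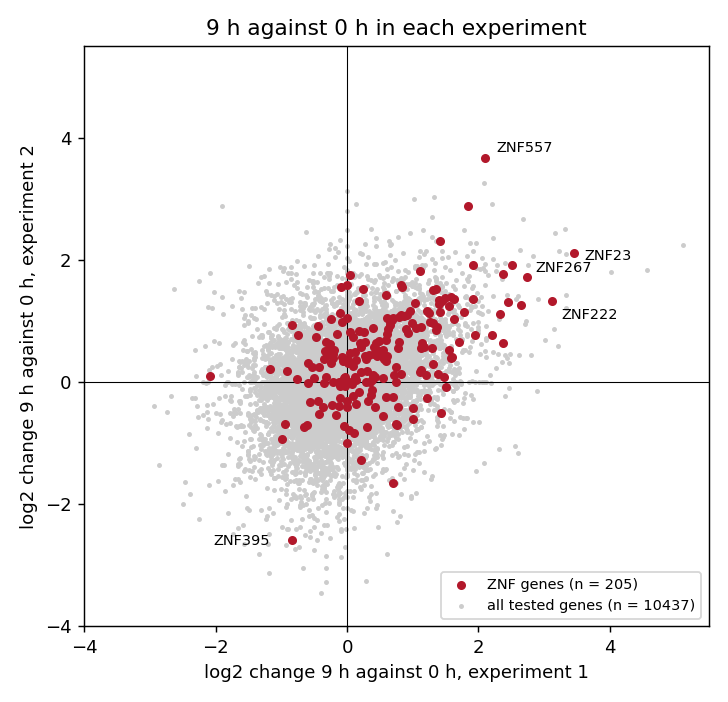
Log2 change for 9 h against 0 h in experiment 1 (horizontal) and in experiment 2 (vertical), relative to the whole array, for the 205 tested ZNF genes and all 10437 tested genes, a point per gene. Of the ZNF genes 117 lie in the upper right quadrant and 18 in the lower left, where ZNF395 is the lowest ZNF gene in experiment 2; in unscaled values the ZNF median is negative.

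Among the bright genes alike in direction in both experiments, the 8 with the highest log2 change at 9 h were ZNF557, ZNF23, ZNF222, ZNF267, ZNF184, ZNF45, ZNF14 and ZNF274. The bright class rests on the mean of all arrays. ZNF557, ZNF23, ZNF222, ZNF267 and ZNF184 lay under its limit of 46.1 units on both 0 h arrays. Their later arrays brought them into the class, so it does not mark genes bright before induction. ZNF557, a C2H2 zinc finger gene of chromosome 19 whose promoter is shown above, read 31.8 units (experiment 1) and the floor (experiment 2) before induction, 59.5 and 113 units after 6 h, and 136 and 162 units after 9 h. Both later times lay above both 0 h arrays. The size depends on the floor, and in experiment 1, where no value was at it, the change was 2.10, less than that of ZNF23, ZNF222 and ZNF267 there. Over both experiments it was a log2 change of 2.89 ± 0.58 at 9 h (± standard error here and below, n = 2 arrays per group; limma adjusted p = 0.543, and 0.0710 with the block). ZNF23, another C2H2 gene, read the floor and 31.4 units before induction, 28.3 and 55.0 units after 6 h, and 139 and 136 units after 9 h. Its 9 h values lay close together and above all others (log2 change 2.78 ± 0.59), and since one 0 h array was at the floor the size depends on the floor: it was 2.13 when only the 0 h array of experiment 2 was kept and 3.43 when only that of experiment 1 was. ZNF222 read 12.8 and 39.3 units before induction, 38.5 and 47.8 units after 6 h, and 112 and 98.7 units after 9 h. Its log2 change was 2.23 ± 0.60 at 9 h, by 3.13 in experiment 1 and 1.33 in experiment 2, and its probe set is of the kind that may also bind related transcripts. The 0 h value of experiment 1 lay near the floor, and with the floor at the 40th percentile the change was 1.59.

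ZNF267, which carries a homeobox core in the promoter shown, read 26.6 and 45.7 units before induction, 73.5 and 75.4 units after 6 h, and 177 and 150 units after 9 h. The 3 times did not overlap, in that order, with a log2 change of 2.22 ± 0.43 at 9 h (limma adjusted p = 0.543, and 0.0662 with the block). At 6 h it was 1.10 ± 0.43, and -0.31 in unscaled values. ZNF184, encoded on chromosome 6, read 29.3 and 34.0 units before induction, 51.8 and 34.1 units after 6 h, and 152 and 116 units after 9 h. Its values at 6 h were close to 0 h in experiment 2, and the log2 change was 2.07 ± 0.45 for 9 h against 0 h and 1.66 ± 0.45 for 9 h against 6 h. ZNF45, a KRAB zinc finger gene of chromosome 19, read 85.2 and 89.4 units before induction, 112 and 116 units after 6 h, and 262 and 229 units after 9 h. The experiments lay close together at each time, and both of its tested probe sets were higher at 9 h (log2 change 1.49 ± 0.32). ZNF14 read 63.0 and 43.0 units before induction, 101 and 106 units after 6 h, and 136 and 152 units after 9 h, with log2 changes of 0.99 ± 0.38 at 6 h, -0.44 in unscaled values, and 1.47 ± 0.38 at 9 h.

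**Figure D4:**
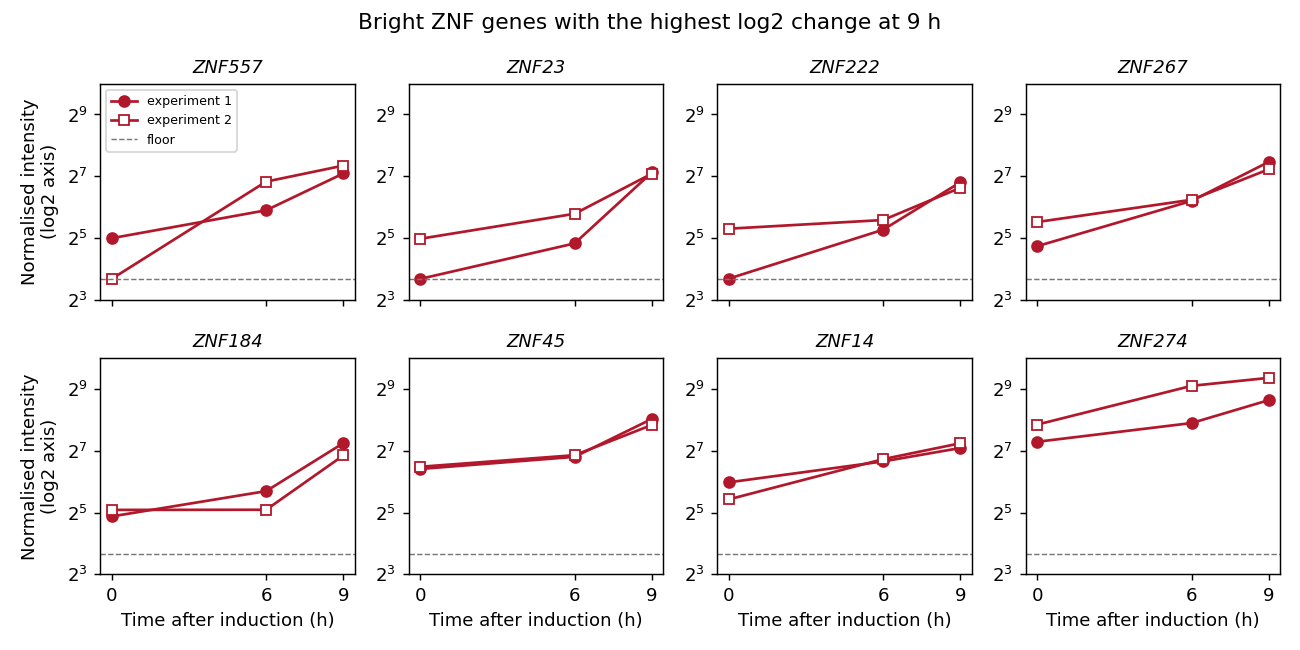
Normalised intensity on a log2 axis of the 8 bright ZNF genes with the highest log2 change at 9 h, against time after induction in hours, with a line per experiment and the floor of 12.7 units dashed. In each panel both 9 h values lie above both 0 h values, by a mean log2 change between 1.43 and 2.89. Bright is set by the mean of all arrays, the 9 h arrays included.

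ZNF274 is known to act on the family itself: it binds the 3′ ends of zinc finger genes and brings SETDB1 there. It read 157 and 231 units before induction, 239 and 551 units after 6 h, and 400 and 660 units after 9 h. The groups at 9 h and 0 h did not overlap, and the change was alike in the experiments, 1.35 and 1.52 (mean 1.43 ± 0.47, limma adjusted p = 0.612, and 0.0537 with the block).

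Several genes of the higher side were of the dim class. ZNF140, a KRAB repressor, was at the floor on both arrays before induction, lay above it on both 6 h arrays, and read 72.5 and 47.8 units after 9 h, at least 4.63-fold higher. ZNF460 and ZNF225 were likewise at the floor before induction, and after 9 h they were at least 2.69-fold and 2.53-fold higher, though only 1 of the 2 tested ZNF460 probe sets had that sign. These sizes rest on the floor: with it at the 40th percentile the log2 changes at 9 h were 0.93 for ZNF140, 0.15 for ZNF460 and 0.06 for ZNF225, in place of 2.21, 1.43 and 1.34. ZNF440, ZNF668, ZNF165 and ZNF81 were at least 1.45-fold, 1.45-fold, 1.31-fold and 1.26-fold higher on the same terms. ZNF165 lay above the floor on both 9 h arrays and on no other. It was thus tested only through them, and its direction was fixed by that rule. Another tested ZNF440 probe set had a log2 change of -0.06 at 9 h. The other 2 of the 3 dim genes with the highest change at 9 h were ZNF574 (log2 change 2.36 ± 0.68) and ZNF426 (1.95 ± 0.58), each with one 0 h array at the floor.

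At 6 h the bright genes with the highest change shared by both experiments were ZNF557, ZNF335, ZNF331, ZNF764, ZNF408, ZNF267, ZNF562 and ZNF14. ZNF335, a component of a histone H3K4 methyltransferase complex, read 14.8 and 123 units before induction, 62.5 and 324 units after 6 h, and 17.6 and 353 units after 9 h. This probe set differed more between experiments than between times. Its log2 change at 6 h, 1.74 ± 1.57, lay near its standard error and between 0.21 and 3.27 with single arrays left out. The other tested ZNF335 probe set had 0.35 at 6 h. ZNF331, an imprinted zinc finger gene, read 116 and 76.5 units before induction, 153 and 350 units after 6 h, and 275 and 168 units after 9 h, with log2 changes of 1.30 ± 0.49 at 6 h and 1.19 ± 0.49 at 9 h. ZNF562 read 94.0 and 92.0 units before induction, 191 and 190 units after 6 h, and 99.6 and 153 units after 9 h, so that the higher level at 6 h (log2 change 1.03 ± 0.36) was not seen in full at 9 h (0.41 ± 0.36). ZNF764 and ZNF408 had log2 changes of 1.20 and 1.12 at 6 h, and the other tested ZNF764 probe set had 0.17. With single arrays left out ZNF331 lay between 0.70 and 1.90, ZNF764 between 0.56 and 1.84, and ZNF408 between 0.42 and 1.81. In unscaled values ZNF331, ZNF562, ZNF764 and ZNF408 lay at -0.22, -0.47, -0.24 and -0.44 at 6 h. Of the dim genes, ZNF574, ZNF211 and ZNF81 had 1.79, 1.38 and 1.38. ZNF81, also at the floor before induction, was at least 2.60-fold higher after 6 h and had only 15.5 and 16.6 units at 9 h. ZNF214, ZNF140, ZNF460 and ZNF225 also left the floor at 6 h in both experiments, at least 1.87-fold, 1.76-fold, 1.75-fold and 1.13-fold higher. These sizes too rest on the floor. With it at the 40th percentile the log2 changes at 6 h were 0.014 for ZNF140 and 0 for ZNF225. The other tested ZNF460 probe set had a log2 change of -1.06 at 6 h.

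Between 6 h and 9 h the bright genes with the largest difference shared by both experiments were ZNF23 (log2 change 1.80 ± 0.59), ZNF184 (1.66 ± 0.45), ZNF189 (1.39 ± 0.50) and ZNF222 (1.29 ± 0.60). ZNF189 read 83.7 and 48.2 units before induction, 61.1 and 34.7 units after 6 h, and 145 and 101 units after 9 h, so in each experiment its 6 h value was the lowest. ZNF562, ZNF384, ZNF500 and ZNF74 had the most negative values, between -0.62 and -0.54, all of which were positive in unscaled values. Of the further ZNF500 probe sets one had 0.08 and another -0.08. ZNF83 reached the floor on both 6 h arrays: it was at least 3.61-fold higher at 9 h than then, and it was at least 2.66-fold lower at 6 h than at 0 h. ZNF442, ZNF639, ZNF217-AS1, ZNF549, ZNF506 and ZNF165 also left the floor between 6 h and 9 h, at least 3.15-fold, 2.88-fold, 1.58-fold, 1.47-fold, 1.45-fold and 1.31-fold higher. For ZNF165, tested only through its 9 h arrays, that direction was fixed by the filter. ZNF675 did the opposite, at least 1.71-fold lower at 9 h than at 6 h and 1.20-fold lower than at 0 h.

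On the lower side, ZNF580, the bright gene with the most negative change at 9 h among those alike in both experiments, read 264 and 148 units before induction, 187 and 112 units after 6 h, and 167 and 88.4 units after 9 h. Experiment 1 lay above experiment 2 at each time, the groups overlapped, and the log2 change was -0.70 ± 0.48 at 9 h, between -1.16 and -0.24 with single arrays left out. The others were ZNF589 (-0.48), ZNF706 (-0.45), ZNF318 (-0.38), ZNF587B (-0.38), ZNF117 (-0.31), ZNF253 (-0.09) and ZNF134 (-0.04). Of the further ZNF589 probe sets one had -0.27 and another 0.63. ZNF395, a DNA-binding factor of chromosome 8 that is dim here, had 109 and 76.2 units before induction, 75.9 units and the floor after 6 h, and 61.3 units and the floor after 9 h. Its log2 change of -1.71 ± 1.00 at 9 h was -0.57 when only the 9 h array of experiment 1 was kept and -2.84 when only that of experiment 2 was. ZNF358 and ZNF37A, also dim, had -0.96 and -0.82, and ZNF37A was the 1 ZNF gene lower at an unadjusted p under 0.05. At 6 h the bright genes with the most negative changes were ZNF747 (-1.25), ZNF771 (-0.81), ZNF512B (-0.60), ZNF91 (-0.56), ZNF189 (-0.46), ZNF580 (-0.44), ZNF443 (-0.41) and the pseudogene ZNF271P (-0.41). With single arrays left out ZNF747 lay between -2.39 and -0.10, ZNF91 between -1.03 and -0.09, and ZNF512B between -1.02 and -0.19. The other tested ZNF512B probe set had 0.68 at 6 h. The dim genes with the most negative changes at 6 h were ZNF395 (-1.55), ZNF83 (-1.41) and ZNF428 (-1.36). ZNF217-AS1, ZNF124 and ZNF506 also reached the floor on both 6 h arrays, at least 2.04-fold, 1.34-fold and 1.30-fold lower than at 0 h.

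The 5 brightest members differed in direction. ZNF207, a spindle assembly protein, read 1278 and 1241 units before induction, 1278 and 1332 units after 6 h, and 1722 and 1307 units after 9 h, with a log2 change of 0.25 ± 0.23 at 9 h that was -0.36 in unscaled values. ZNF146, a protein made almost wholly of zinc fingers, read 650 and 655 units before induction, 848 and 613 units after 6 h, and 1342 and 1211 units after 9 h. Both of its 9 h arrays lay above the other 4, a log2 change of 0.97 ± 0.25 (limma adjusted p = 0.559, and 0.0866 with the block). ZNF706, a small zinc finger protein, had -0.45 ± 0.28, ZNF638, an RNA-binding nuclear protein, 0.47 ± 0.28 and ZNF22 0.47 ± 0.35. The other tested ZNF638 probe set had -0.08 at 9 h, and the other ZNF22 probe set 0.38. In unscaled values ZNF638 and ZNF22 lay at -0.11 and -0.08.

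Among ZNF genes with known roles, ZNF217, an oncogene amplified in breast cancer, read 178 and 121 units before induction, 117 and 169 units after 6 h, and 267 and 325 units after 9 h. Its 9 h arrays lay above the other 4, with a log2 change of 1.00 ± 0.36 at 9 h and -0.06 at 6 h. ZNF350, which binds BRCA1, read 25.5 units and the floor before induction, 20.8 and 29.1 units after 6 h, and 67.9 and 62.8 units after 9 h, a log2 change of 1.86 ± 0.49 that was 1.08 with the higher floor. ZNF224, a KRAB repressor of the aldolase A gene, had 1.16 ± 0.49, but only 1 of its 3 tested probe sets had that sign. ZNF24, a SCAN domain protein, had 0.87 ± 0.34 with all 3 probe sets of that sign, and ZNF148, a GC-box binding factor, 0.67 ± 0.32 with both. ZNF10, the source of a KRAB domain widely used as a repressor, had 0.71 ± 0.48, between 0.28 and 1.14 with single arrays left out. ZNF202, a repressor of lipid metabolism genes, had 0.66 ± 0.45, and ZNF91, which silences SVA retrotransposons, 0.63 ± 0.52. With single arrays left out ZNF91 lay between 0.24 and 1.03, ZNF202 between 0.42 and 0.90 and ZNF148 between 0.40 and 0.93. ZNF143, an activator of small nuclear RNA genes, and ZNF281 had 0.00 ± 0.46 and -0.01 ± 0.58.

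Neighbouring genes were compared because the family is clustered. Runs of ZNF genes were read from the order of protein-coding genes, with at most 1 other gene between neighbours, and the 6 runs with at least 5 tested members are given, 5 of them on chromosome 19 and 1 on chromosome 7. The run from ZNF283 to ZNF180, with 11 tested members, had a median of 1.34 on the log2 scale for 9 h against 0 h, 1.31 in experiment 1 and 1.28 in experiment 2. In it 10 members were higher in both experiments and 0 lower, where 28% and 29.5% of all tested genes were, and ZNF226 (0.00) was the remaining one. The members were ZNF45 (1.49), ZNF155 (1.20), ZNF230 (0.88), ZNF222 (2.23), ZNF223 (0.52), ZNF224 (1.16), ZNF225 (1.34), ZNF227 (1.41), ZNF112 (1.72) and ZNF180 (1.51), all named for their place in the run. The median of this run is the value of ZNF225, which was at the floor on both 0 h arrays. With the floor at the 40th percentile ZNF225 had 0.06. The members next to it in size, ZNF155 and ZNF227, had 1.20 and 1.41. ZNF155, ZNF230, ZNF224, ZNF225, ZNF112 and ZNF180 were dim, and the ZNF224 probe sets differed in sign. The run from ZNF577 to ZNF816 had a median of 0.91 over 10 members, that from ZNF627 to ZNF791 0.86 over 5 and that from ZNF101 to ZNF254 0.63 over 9. The run from ZNF264 to ZNF8, near the end of the chromosome, had 0.38 over 21 members, and that from ZNF786 to ZNF862 on chromosome 7 had 0.18 over 5. Members of a run are close copies, so their probe sets may read each other's transcripts, and they are not independent. The runs were laid out with earlier results of these data known, and the difference between them was not tested.

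**Figure D5:**
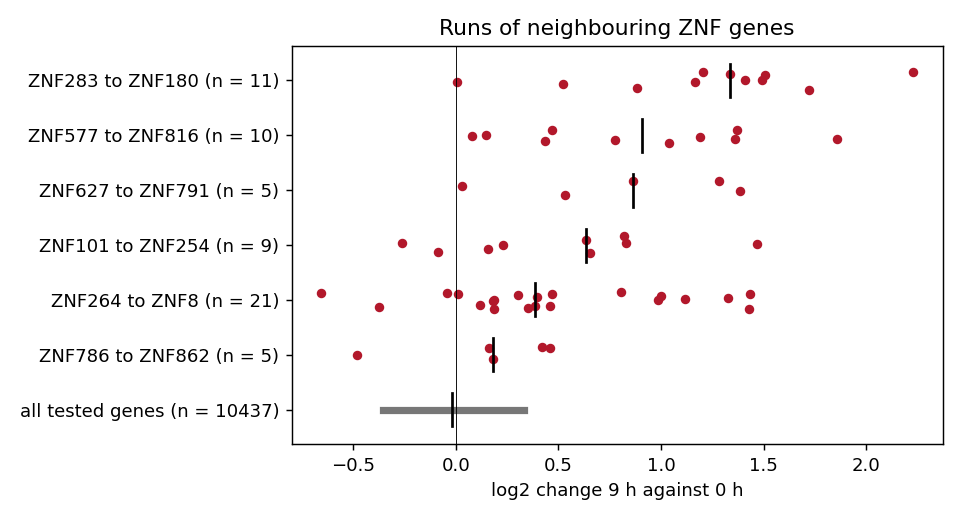
Log2 change for 9 h against 0 h, relative to the whole array, of the tested members of 6 runs of neighbouring ZNF genes (a point per gene, the median as a vertical line) and, in the last row, the median and quartiles of all 10437 tested genes. The run from ZNF283 to ZNF180 has its median at 1.34, the value of ZNF225, which was at the floor on both 0 h arrays. That from ZNF786 to ZNF862 has its median at 0.18.

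By place and probe the picture was as follows. The 87 tested ZNF genes of chromosome 19 had medians of 0.50 at 9 h and 0.22 at 6 h on the log2 scale, against 0.30 and 0.23 for the 118 on other chromosomes. Genes whose next protein-coding neighbour is also a ZNF gene had 0.46 at 9 h (124 genes), against 0.38 for those without (73 genes). The 28 genes whose probe set name ends in x_at, a kind that may bind related transcripts, had 0.55, against 0.41 for the 177 others. Probe sets ending in s_at stand among the 177 and were not set apart. These others are thus not known to be free of such binding. The bright genes had 0.47 and the dim ones 0.27. The 8 tested members that do not code for protein had 0.10. Of the 45 genes with several tested probe sets, all had the same sign in 29 at 9 h and in 22 at 6 h. The 59 tested genes with the ETS motif had a median of 0.52 at 9 h, against 0.35 for the 115 without, and those with the GC box 0.42, against 0.39. ZNF267 and ZNF274, with the homeobox core, had 2.22 and 1.43, against a median of 0.41 for the 172 without it. Other motifs of few genes also had medians apart from the rest. It was 1.00 for the 4 genes with the AP-1 motif, against 0.42 for the 170 without. The 8 with the cyclic AMP response element had 0.70, against 0.40 for 166. The 4 with the TATA box had -0.28, against 0.43 for 170. These splits are descriptions without a test.

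Zinc finger genes of other names had medians both below and above that of the ZNF genes. At 9 h the 14 tested ZSCAN and ZKSCAN genes, whose proteins pair a SCAN domain with zinc fingers, had a median log2 change of 0.83, the 21 ZBTB genes, with a BTB domain, 0.37, the 8 ZFP genes 0.18 and the 13 KLF genes 0.35, beside 0.43 for the ZNF genes. As 1 list of 56 genes they had 0.45 (-0.05 in unscaled values), with 30 higher and 11 lower in both experiments, where 28% and 29.5% of all tested genes were. KLF10, a growth-inhibiting factor induced by TGF-beta, was the 1 gene of them past the threshold, and this with the block (log2 change 1.97 ± 0.33, limma adjusted p = 0.0298 with the block and 0.543 without). The proteins that KRAB zinc fingers work through were listed as 26 cofactor genes. The 23 of them measured had a median of -0.16 at 9 h and -0.09 at 6 h, 7 being higher and 8 lower in both experiments at 9 h, near the 28% and 29.5% of all tested genes, with 0 past the threshold by limma. At an unadjusted p under 0.05, 1 was higher and 2 lower, where 4.7% and 3.21% of all tested genes were. TRIM28 read 760 and 964 units before induction, 1159 and 1718 units after 6 h, and 505 and 1465 units after 9 h, so the experiments went opposite ways at 9 h. SETDB1, which TRIM28 recruits, read 20.2 and 33.4 units before induction, 46.3 and 110 units after 6 h, and 54.0 and 102 units after 9 h, a log2 change of 1.52 ± 0.61 at 9 h. The HP1 genes CBX1, CBX3 and CBX5 had -0.70 ± 0.40, -0.38 ± 0.52 and -0.36 ± 0.32 at 9 h. Their experiments differed: CBX1 had -0.25 in experiment 1 and -1.14 in experiment 2, CBX3 -0.07 and -0.68, and CBX5 -0.74 and 0.03.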

How the data were processed

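The deposited values are 1 linear intensity per probe set and array (6 arrays, 22283 probe sets); per the labels they come from Affymetrix chips, with software and scaling not given in the sources used here. Means after a 2% trim at either end differed 5.49-fold, so arrays were brought to a common distribution with limma 3.58.1 (quantile method) in R 4.3.3, values under the 25th percentile were set to it (12.7 units), and log2 was taken. After leaving out 68 control probe sets, 18360 with at least 2 arrays above the floor were tested by lmFit and, with an intensity trend, eBayes (3 residual degrees of freedom), adjusted by Benjamini-Hochberg over all of them at 0.05. The number of arrays limits the precision. The fit was checked on simulated data.

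The experiment number marks a batch of RNA per the labels. Deviations from the group means correlated between times of an experiment at 0.247, 0.336 and 0.391, so it was also fitted as a block (2 residual degrees of freedom). One title (6 h, experiment 2) and its lot line disagree on the experiment. The title was used, and the lot line served as another block.

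The members, lists and tests were chosen with earlier results of these data known. Bright genes named are the 8 highest and 8 lowest at 6 h and 9 h (4 and 4 between them) alike in direction in both experiments, with 3 and 3 dim genes, the 5 brightest, genes leaving or reaching the floor, and 13 measured genes of known role. A split by protein domains was planned and not run, since no protein sequences were used here. Symbols are those of the array's probe table, and gene order and promoters are from RefSeq (GRCh38.p14). Alternatives were other blocks, scalings, floors, filters, probe set means and each array left out.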

Additional observations from a re-analysis of the deposited data

How the results depend on the processing

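No ZNF gene passed under any alternative. No cofactor did for 9 h against 0 h, the comparison in which cofactors were counted under the alternatives. For 9 h against 0 h the median was 0.46 with trimmed-mean scaling, -0.11 unscaled (all genes -0.56), 0.30 without the filter and 0.47 with the mean filter, and 0.40 to 0.46 with single arrays left out. For 6 h it was 0.40, -0.98 (all genes -1.36), 0.15 and 0.30, and 0.21 to 0.26. For 9 h against 6 h it was 0.12 with trimmed means (all genes -0.08), 0.99 unscaled (all genes 0.78), and 0.15 to 0.35 with single arrays left out. The excess of the ZNF median over that of all genes at 9 h was 0.45 unscaled, 0.46 with trimmed means and 0.30 without the filter. The replicate block (paired by experiment) cannot move these medians, since by the titles each time has 1 array in each experiment. The counts higher at an unadjusted p under 0.05 were, at 6 h, 21 with the block, trimmed means or no filter each, 0 unscaled and 4 to 12 with single arrays left out; at 9 h, 4 unscaled and 22 to 49. The other zinc finger genes had medians of 0.47 (trimmed means), -0.050 (unscaled), 0.43 (higher floor), 0.36 (no filter), 0.60 (mean filter), 0.41 (probe set means) and 0.42 to 0.51 with single arrays left out. Causes were not tested beyond fewer genes or arrays.

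Of 1192 values of the 67 named genes under alternatives, 25 turned sign. Many of the others could not do so. The replicate block, the filters and leaving out an array outside the comparison keep a gene's log2 change as it is. The share that turned is therefore no measure of robustness. Unscaled, at 6 h: ZNF14 -0.44, ZNF225 -0.39, ZNF267 -0.31, ZNF331 -0.22, ZNF408 -0.44, ZNF460 -0.064, ZNF562 -0.47 and ZNF764 -0.24; at 9 h: ZNF143 -0.55, ZNF207 -0.36, ZNF22 -0.079 and ZNF638 -0.11; between 6 h and 9 h: ZNF384 0.36, ZNF500 0.23, ZNF562 0.34 and ZNF74 0.23. With probe set means ZNF460 had -0.13 and ZNF512B 0.037 at 6 h, and ZNF281 had 0.10 at 9 h with the higher floor. With single arrays left out, ZNF134 ranged between -0.20 and 0.11, ZNF143 between -0.29 and 0.30 and ZNF281 between -0.46 and 0.44 at 9 h.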

Other observations

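The 15 probe sets listed with a ZNF symbol and a second gene entered no comparison above, since they cannot be assigned to 1 gene. Of the 14 that lay above the floor on at least 2 arrays, 10 had a positive log2 change for 9 h against 0 h, where 48.7% of all tested genes did. Relative to the whole array, their median was 1.03 and their range -1.26 to 2.02. The 14 are not separate genes. PTGR2 with ZNF410 is listed more than once (-0.20 and 0.96), as is ZNF131 with a second gene (1.13 and 2.02). The probe set with the lowest value lists FBXO16 and ZNF395, whose own probe set had -1.71.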
